A study of Homo sapiens and Mus musculus with 12 samples.

Results

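MHC class I and its transactivator NLRC5 were examined as 9 genes: H2-K1, H2-D1, B2m and Nlrc5 among the 22021 genes listed for mouse NK cells, and HLA-B, HLA-C, HLA-E, B2M and NLRC5 among the 18304 genes listed for the human NK cell line NK92MI. They were taken by symbol, and all 9 passed the filter on low counts. The mouse libraries came from splenic NK cells, 3 of WT (Ehmt2 flox/flox) and 3 of KO mice, in which Ncr1-iCre, a recombinase expressed from the NK cell gene Ncr1, deletes the floxed Ehmt2. EHMT2 is a methyltransferase that places H3K9me2, a repressive histone mark. Both genotypes carried the floxed allele, were on a C57BL/6J background and were age- and sex-matched young adults. WT mice as described carry no Ncr1-iCre, so that Cre and Ehmt2 loss cannot be told apart. The human libraries came from NK92MI, an established line engineered to express IL-2, treated with the EHMT2 inhibitor BIX-01294 (BIX) or with its solvent DMSO, 3 libraries each. The dose and the length of the treatment are not in the sample labels and are not repeated here. NK92MI is a line of malignant origin. Nothing in the labels says that the libraries of a group came from separate animals or cultures, so that p-values measure only the spread between these libraries.

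A class I molecule is a polymorphic heavy chain (such as H2-K and H2-D in mouse, and HLA-B and HLA-C in human, with HLA-E as a conserved relative) held at the cell surface by the light chain beta-2 microglobulin and loaded with a peptide made by the proteasome and carried into the endoplasmic reticulum by the TAP transporter. NLRC5 is a nuclear NLR protein that binds no DNA itself and acts through the RFX, CREB/ATF and NF-Y proteins on the SXY module of class I promoters, while interferon gamma and IRF1 raise both NLRC5 and class I. NK cells read class I with inhibitory receptors, Ly49 in mouse, KIR and LILRB1 in human, and CD94/NKG2A in both species. In human, CD94/NKG2A binds HLA-E.

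The promoter windows are shown because the SXY module, through which NLRC5 acts, lies in them and the members moved in different directions. Windows of 250 bases upstream of the start site were found in RefSeq (GRCh38.p14) for 3 of the 5 human members, at chr15:44711267-44711516 on the plus strand (B2M) and at chr6:31357180-31357429 (HLA-B) and chr6:31272093-31272342 (HLA-C) on the minus strand. HLA-E and NLRC5 had no entry. Capitals mark kB-type letters (GGG and TCCC with 3 or 4 bases between them), interferon-type letters (GAANNGAAA, or GAAA and GAAA with 2 bases between them, as in an interferon-stimulated response element, on either strand) and the pair TGACG and ATTGG, the cores bound by CREB/ATF and NF-Y.
B2M: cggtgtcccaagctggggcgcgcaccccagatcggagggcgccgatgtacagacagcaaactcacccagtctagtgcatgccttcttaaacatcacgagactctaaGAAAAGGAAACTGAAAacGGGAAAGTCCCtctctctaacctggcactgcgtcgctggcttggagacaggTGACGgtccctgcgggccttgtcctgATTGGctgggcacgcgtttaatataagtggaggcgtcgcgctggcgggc
HLA-B: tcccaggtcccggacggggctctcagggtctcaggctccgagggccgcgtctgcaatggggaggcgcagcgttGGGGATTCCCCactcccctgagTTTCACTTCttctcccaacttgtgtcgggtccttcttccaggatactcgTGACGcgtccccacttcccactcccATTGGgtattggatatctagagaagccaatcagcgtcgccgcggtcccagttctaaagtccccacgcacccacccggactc
HLA-C: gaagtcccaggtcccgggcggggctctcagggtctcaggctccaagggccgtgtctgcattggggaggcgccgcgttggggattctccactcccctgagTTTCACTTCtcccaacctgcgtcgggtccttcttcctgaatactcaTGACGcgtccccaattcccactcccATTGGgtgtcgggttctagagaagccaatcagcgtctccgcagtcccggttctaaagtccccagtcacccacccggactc

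TGACG followed after 20 bases by ATTGG occurred in HLA-B and HLA-C, and after 21 bases in B2M, on the sense strand in each. The pair at either spacing, on either strand, was found in 47 of 35116 human promoter windows of that length (0.134%). This spacing was searched after the windows had been seen. GAANNGAAA occurred on the opposite strand in HLA-B, 155 to 147 bases before the start, and in HLA-C, 151 to 143 bases before it, against 6.56% of all windows. The longer interferon-type form occurred in B2M, in overlapping matches between 144 and 129 bases before the start, against 3.02%. The kB-type letters with 3 bases between them occurred in HLA-B, where matches on both strands overlap, against 6.73% of windows, and those with 4 in B2M, 126 to 116 bases before the start, against 7.05%. The longer form of each was added after the windows had been seen. Other spellings of these elements were not searched, so that a window without capitals of a kind is not shown to lack the element. TGACG alone was found in 21.2% of windows and CCAAT, the reverse complement of ATTGG, in 32%, on either strand. These are matches of letters in a window, and no binding was measured here.

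Library totals lay between 25891680 and 37438868 counts in mouse and between 16579469 and 17165446 in human, and replicates differed beyond sampling noise. In KO NK cells, Ehmt2 was lower in every library, at 171, 143 and 137 CPM (counts relative to the library total, scaled with TMM factors) against 275, 284 and 285 (log2 fold change -0.91, edgeR adjusted p = 0.0162). Ezh2, which the genotype label of the KO samples names in conflict with their titles, had a log2 fold change of -0.23 (edgeR adjusted p = 0.116). The NK label could be checked on 12 NK cell markers, whose summed level was 10780 to 12550 CPM in KO and 5694 to 9587 in WT. Markers of other leukocytes were present, and most had negative log2 fold changes, where 7.43% of all genes were called lower and 4.44% higher. The 8 B cell markers summed to 93.5 to 501 CPM in KO and 539 to 1535 in WT, and the 9 macrophage and monocyte markers to 1364 to 2471 and 2529 to 6447, with 0 of 8 and 5 of 9 called lower. The 6 dendritic cell markers (2 called lower) summed to 142 to 267 CPM in KO and 338 to 556 in WT, and the 6 neutrophil markers (1 called lower) to 1.72 to 79.1 and 66.4 to 734. Of the 6 T cell markers, which summed to 92.2 to 194 and 139 to 235 CPM, 1 was called, Cd3g, and it was higher in KO. The neutrophil genes Ly6g and Elane had no counts in KO replicates 2 and 3, nor Retnlg in KO replicate 3. Since these cells also carry class I, their part in the mouse results was not tested, and in bulk RNA fewer cells of a type cannot be told apart from less RNA per cell.

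In splenic NK cells, H2-K1 and Nlrc5 were higher in KO than in WT relative to the bulk of expressed genes, with p-values close to the threshold. Scaled to NK marker RNA, which was itself higher in KO, their log2 fold changes were negative. H2-K1 rose 1.39-fold and Nlrc5 1.49-fold. H2-D1 had a ratio of 1.27 and B2m of 1.11, and neither passed the test. A gene was called where the edgeR quasi-likelihood test gave a Benjamini-Hochberg adjusted p under 0.05 over the 13189 genes tested. 2 of the 4 members were called, both higher, against 4.44% of all genes called higher and 7.43% called lower. H2-K1, H2-D1 and Nlrc5 did not overlap between the groups, all higher in KO, as 19.1% of all genes did in this direction and 19.3% in the other. At the thresholds of the study (adjusted p under 0.01 and absolute log2 fold change over 0.5) edgeR called no member and 0 genes in all, although 35.8% had an unadjusted p under 0.05, and DESeq2 called Nlrc5.

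**Figure D1:**
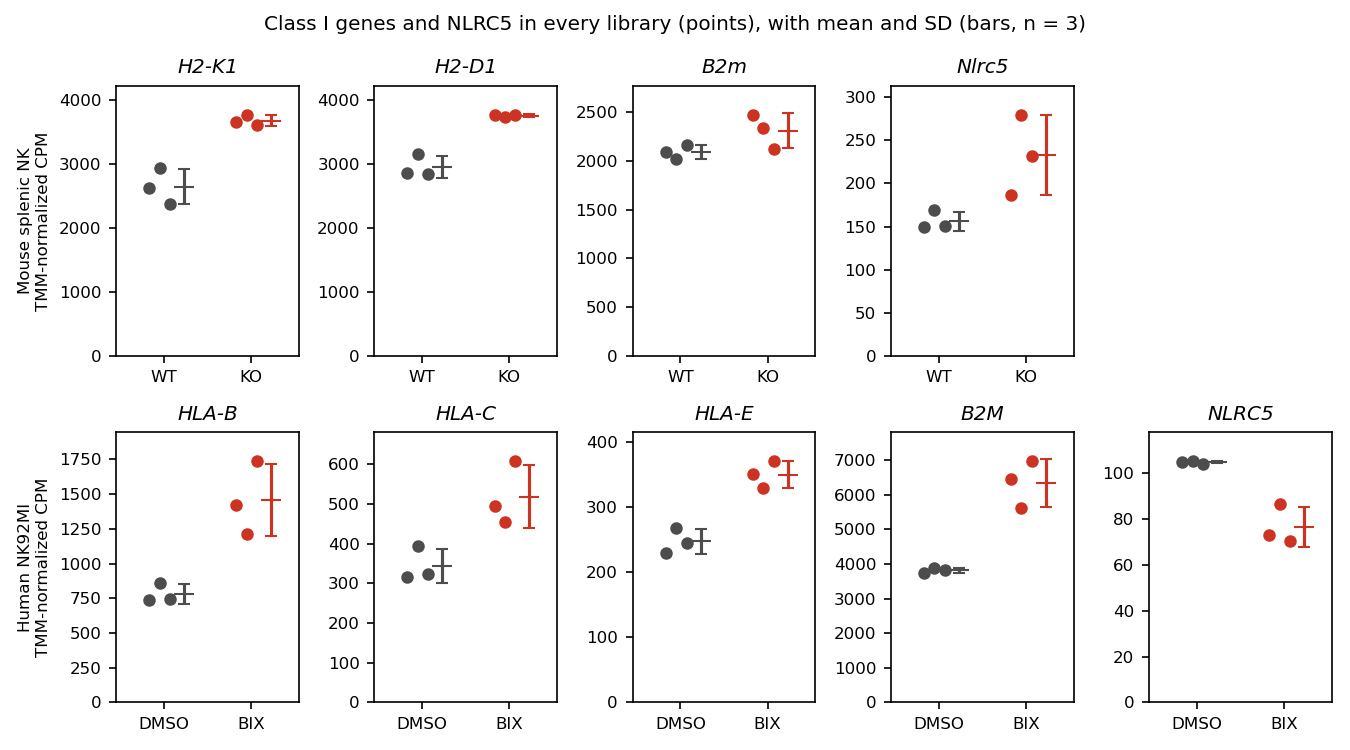
TMM-normalized CPM (y axes, linear, from 0) of each gene in every library, with points for libraries and bars for the mean ± SD of 3 libraries. WT and KO splenic NK cells are above, DMSO-treated and BIX-treated NK92MI cells below. B2m is the only panel in which the groups overlap, and NLRC5 the only one in which the treated group is lower.

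H2-K1, a classical heavy chain on chromosome 17 (chr17:33996017-34000347, minus strand, GRCm38), was counted at 2635, 2941 and 2380 CPM in WT replicates 1 to 3 and at 3663, 3773 and 3613 CPM in KO replicates 1 to 3. Every KO library lay above every WT library. The log2 fold change was 0.47 ± 0.13 (SE; edgeR adjusted p = 0.04995), so that the edgeR call rests on the last digit of the p-value. DESeq2 (adjusted p = 0.000337) and limma-voom (adjusted p = 0.0402) called H2-K1, and edgeR with DESeq2 size factors did not (adjusted p = 0.0512). Without WT replicate 2, the smallest library and the WT library with the most NK marker RNA, the edgeR adjusted p was 0.0232 and the log2 fold change 0.56. The call was lost without KO replicate 1, 2 or 3 and without WT replicate 1 or 3, with edgeR adjusted p between 0.0504 and 0.172 and log2 fold changes between 0.40 and 0.49.

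H2-D1, the other classical heavy chain (chr17:35262730-35267499, plus strand), stood at 2858, 3148 and 2837 CPM in WT and at 3762, 3728 and 3760 CPM in KO. The KO libraries were close together and all above WT. With a log2 fold change of 0.35 ± 0.11 (SE; 95% interval 0.08 to 0.61; edgeR adjusted p = 0.0772) it did not pass the threshold. DESeq2 called it (adjusted p = 0.00134). B2m (chr2:122147686-122153083, plus strand), the light chain shared by all class I molecules, was measured at 2088, 2016 and 2166 CPM in WT and at 2471, 2340 and 2122 CPM in KO. The groups overlapped through KO replicate 3. The log2 fold change of 0.15 had a 95% interval of -0.12 to 0.41, which includes no change.

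Nlrc5 (chr8:94434356-94527272, plus strand) was at 149, 169 and 151 CPM in WT and at 187, 280 and 232 CPM in KO. All KO libraries were above all WT libraries, with KO replicate 2 highest and a spread in KO well beyond that in WT. The log2 fold change was 0.58 ± 0.15 (SE; edgeR adjusted p = 0.0472). The call held without KO replicate 1 (edgeR adjusted p = 0.0232) and without WT replicate 2 (0.0263). It was lost without KO replicate 2 or 3 or WT replicate 1 or 3, at edgeR adjusted p between 0.127 and 0.158. KO replicate 2 had the largest weight on the size: without it the log2 fold change was 0.43.

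Ratios of counts within a library do not depend on the scaling. There were 1.48, 1.61 and 1.70 H2-K1 counts per B2m count in KO and 1.26, 1.46 and 1.10 in WT, without overlap. For H2-D1 per B2m the ranges overlapped (1.52 to 1.77 in KO, 1.31 to 1.56 in WT). H2-K1 per H2-D1 was 0.974, 1.01 and 0.961 in KO and 0.922, 0.934 and 0.839 in WT, again without overlap. H2-K1 thus gained on both B2m and H2-D1 within these libraries, a description to which no test was applied. H2-K1 per Nlrc5 overlapped, between 13.5 and 19.6 in KO and 15.8 and 17.7 in WT. Together H2-K1, H2-D1 and B2m made up 0.951% to 1% of all counts in KO and 0.738% to 0.807% in WT.

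The levels themselves differed widely. Per kilobase of the principal transcript, WT levels were 2430 ± 87.2 CPM per kb for B2m, 1638 ± 174 for H2-K1, 1402 ± 82.7 for H2-D1 and 20.6 ± 1.43 for Nlrc5 (SD, n = 3). H2-K1 and H2-D1 were neighbours whose WT libraries overlapped on this scale. In KO the corresponding levels were 2687 ± 205, 2275 ± 50.5, 1784 ± 8.99 and 30.7 ± 6.13, in the same order. H2-D1, H2-K1 and B2m ranked 11, 13 and 24 by CPM among the 13189 genes in WT, and Nlrc5 ranked 1350.

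The other genes of the class I pathway moved less uniformly in KO, where 4.44% of all genes were called higher and 7.43% lower. Of 13 genes of peptide supply and loading, 2 rose and 11 were not called, with a median log2 fold change of 0.11 beside 0.01 for all genes. Tap2, a subunit of the peptide transporter, was at 210, 218 and 206 CPM in WT and 258, 250 and 261 in KO (log2 fold change 0.28, edgeR adjusted p = 0.0485). Psmb10, an immunoproteasome subunit, was at 145, 143 and 133 CPM in WT and 176, 188 and 167 in KO (log2 fold change 0.33, edgeR adjusted p = 0.0452). Both classical NLRC5 targets Tap1 and Psmb9 overlapped between the groups, with log2 fold changes of 0.15 (95% interval -0.05 to 0.34) and 0.02 (-0.20 to 0.25).

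Among 13 factors of the class I promoter, 1 rose and 2 fell, against 4.44% and 7.43% of all genes (median log2 fold change 0.09). Irf1, which binds the interferon-stimulated element, stood at 229, 273 and 240 CPM in WT and 379, 366 and 327 in KO, a log2 fold change of 0.53 (edgeR adjusted p = 0.0324). Rfx5, the DNA-binding RFX subunit that NLRC5 needs, fell from 63.6, 61.5 and 61.4 CPM to 49.3, 51.3 and 48.0 CPM (log2 fold change -0.33, edgeR adjusted p = 0.0413). Rel, an NF-kB subunit, fell by a similar amount (log2 fold change -0.34, edgeR adjusted p = 0.0449). Rfx5 and Nlrc5, partners on the same promoter module, therefore had calls of opposite direction in KO.

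Of the 14 other heavy chains tested, 3 rose and 2 fell, against 4.44% of all genes called higher and 7.43% lower. The genes that rose, H2-Q4, H2-Q6 and H2-Q7, had log2 fold changes of 0.51, 0.60 and 0.63 (edgeR adjusted p between 0.0419 and 0.0482). H2-Q6 and H2-Q7 are near copies, so that the split of reads between them is uncertain. H2-M2 (log2 fold change -1.12) and Fcgrt, the neonatal Fc receptor (-1.52), fell. Fcgrt is also expressed by macrophages, and the part of these cells in its lower level was not tested.

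In the 9 genes of interferon gamma input, 2 rose and 7 were not called, where 4.44% of all genes were called higher. Ifng was at 15.9, 25.4 and 16.2 CPM in WT and 39.3, 43.0 and 38.3 in KO, a 2.10-fold difference (edgeR adjusted p = 0.0279). Socs1, the feedback inhibitor of this pathway, rose 1.93-fold (edgeR adjusted p = 0.0269).

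Of the 12 genes listed as class I receptors of NK cells, not all of them inhibitory, 7 were called, all higher, against 4.44% of all genes. All 12 had a positive log2 fold change, which under scaling to NK markers lay between -0.35 (Klra3) and 0.59 (Klra5), and 10 did not overlap between groups (19.1% of all genes did not overlap in this direction). The median log2 fold change was 0.74. The 6 with the smallest adjusted p were Klra10 (1.01), Klra5 (1.36), Klrd1 (0.84), Klra6 (0.62), Klra9 (0.69) and Klrc2 (0.87), with edgeR adjusted p between 0.0239 and 0.0465. Klrd1 is the CD94 chain and the Klra genes encode Ly49 receptors, a family of near-identical genes whose reads may be split uncertainly. The 12 NK cell markers, 1 of which is Klrd1, had a median of 0.76, and the summed receptor level, 2726 to 2932 CPM in KO and 1322 to 2370 in WT, was highest within WT in replicate 2, as was the NK marker level.

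The class II list gives the contrast. Ciita, the class II counterpart of Nlrc5, was at 270, 214 and 311 CPM in WT and 168, 99.2 and 102 in KO (log2 fold change -1.10, edgeR adjusted p = 0.0350). Of the 10 class II genes, 6 fell while none rose, against 7.43% of all genes called lower and 4.44% higher. There were 1.11, 2.82 and 2.27 Nlrc5 counts per Ciita count in KO and 0.553, 0.788 and 0.484 in WT. The B cell, macrophage and dendritic cell marker sums given above were also lower in KO, and the part of these cells was not tested.

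When the mouse libraries were scaled so that the NK markers were equal between them, all 4 members turned negative, with log2 fold changes of -0.37 (H2-K1), -0.50 (H2-D1), -0.72 (B2m) and -0.29 (Nlrc5). This scaling moved the median of all genes to -0.85, with 33 genes called higher and 9837 lower (74.8% called), and the signs follow from that shift. The NK marker list holds Gzmb, Prf1 and Tbx21, effector and maturation genes that the study follows as readouts of Ehmt2 loss. All 12 markers had positive log2 fold changes under TMM, and 6 were called higher, against 4.44% of all genes. More NK cells in the KO libraries and more marker RNA per cell cannot be told apart here. Whether the list is a neutral reference was not tested. Of the pathway genes, 37 were called under this scaling, all lower. H2-Q4, H2-Q6, H2-Q7, Irf1, Tap2 and Psmb10 turned negative (between -0.58 and -0.20), and Ifng (0.27) and Socs1 (0.12) stayed positive. Relative to that median the members were at 0.48, 0.35, 0.13 and 0.56, close to their values relative to the median under TMM (0.46, 0.33, 0.13 and 0.56). A change of scaling moves all genes nearly alike, so that this closeness was fixed in advance and is no separate support. The direction in KO is therefore a statement relative to the bulk of expressed genes and not relative to NK marker RNA.

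In NK92MI cells, BIX raised all 4 class I chains and lowered NLRC5. HLA-B rose by 86.7%, B2M by 66.4%, HLA-C by 50.5% and HLA-E by 41.1%, whereas NLRC5 fell by 27.0%. All 5 members were called at adjusted p under 0.05 over 12727 genes. The background was broad: 18.4% of genes were called higher and 18.4% lower, and 24.1% did not overlap in the higher and 23.9% in the lower direction. At the thresholds of the study, HLA-B, HLA-C and B2M were called, against 6.24% of genes higher and 5.43% lower, and HLA-E and NLRC5 missed the fold limit. With DESeq2 at these thresholds HLA-E passed as well (log2 fold change 0.50, adjusted p = 4.38e-09), which made 4 members. EHMT2 itself, the target of the drug, was at 40.4, 39.3 and 35.8 CPM under BIX and 57.1, 61.6 and 54.3 under DMSO (log2 fold change -0.58, edgeR adjusted p = 0.000101).

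**Figure D2:**
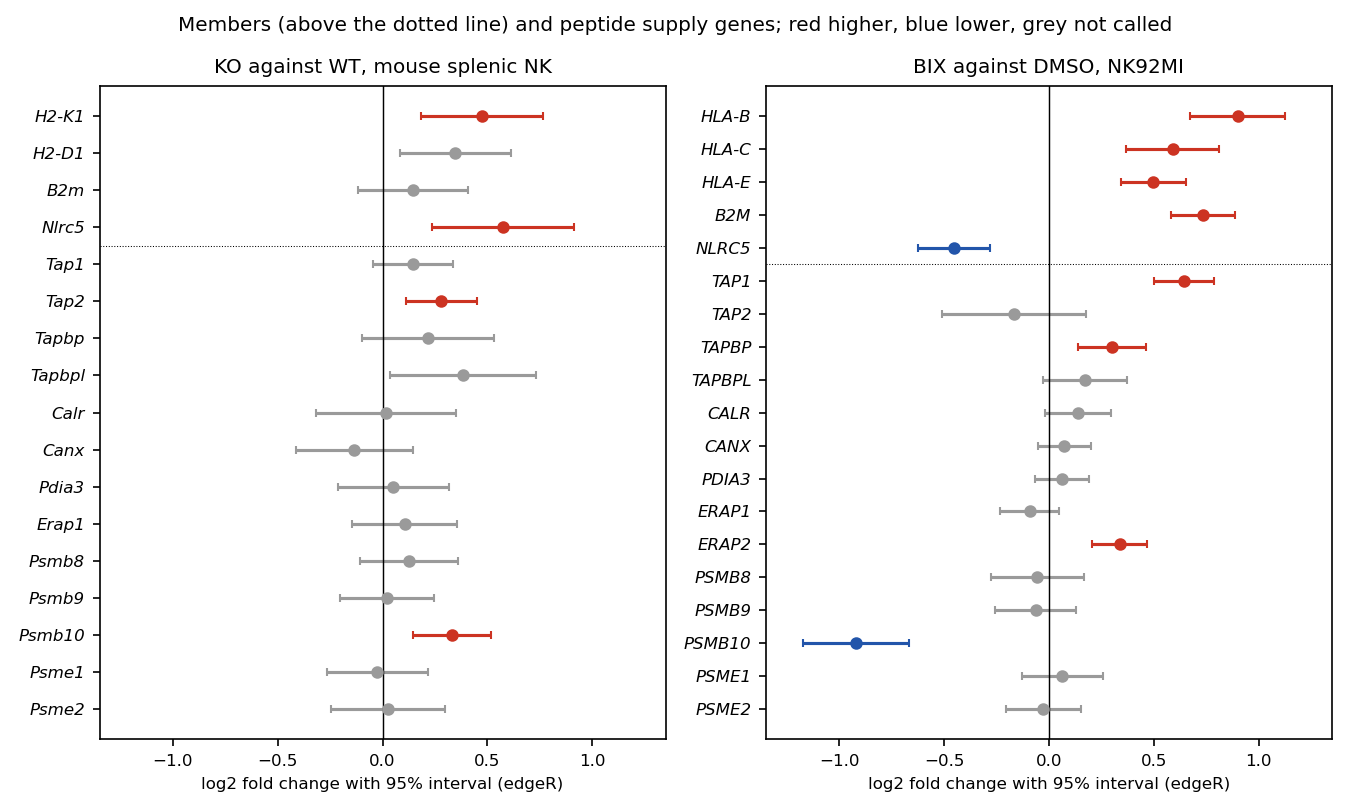
Log2 fold change (x axis) with its 95% interval from edgeR for the members, above the dotted line, and for the peptide supply and loading genes below it, in KO against WT mouse NK cells (left) and BIX-treated against DMSO-treated NK92MI cells (right). Red genes were called higher, blue genes lower and grey genes not called. NLRC5 at -0.45 and PSMB10 at -0.92 are the blue points in human, where their mouse counterparts are red at 0.58 and 0.33.

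HLA-B, a classical heavy chain (chr6:31353872-31367067, minus strand, GRCh38), was at 737, 864 and 742 CPM in the DMSO libraries and at 1423, 1216 and 1736 CPM in BIX replicates 1 to 3. The control columns are numbered, but no label ties a number to a DMSO replicate. The lowest BIX library was above the highest DMSO library. The log2 fold change was 0.90 ± 0.11 (SE; edgeR adjusted p = 2.27e-05). HLA-C (chr6:31268749-31272130, minus strand) was at 317, 394 and 323 CPM under DMSO and 495, 454 and 608 CPM under BIX, with a log2 fold change of 0.59 ± 0.10 (SE; edgeR adjusted p = 0.000616). HLA-B and HLA-C shared the order of libraries within each group: BIX replicate 3 was highest and BIX replicate 2 lowest in both.

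HLA-E (chr6:30489509-30494194, plus strand), the ligand of CD94/NKG2A, was at 230, 268 and 246 CPM under DMSO and 351, 329 and 370 under BIX (log2 fold change 0.50 ± 0.07 SE; edgeR adjusted p = 0.000131). B2M (chr15:44711358-44718851, plus strand) was at 3743, 3879 and 3817 CPM under DMSO and 6459, 5611 and 6965 under BIX (log2 fold change 0.73 ± 0.07 SE; edgeR adjusted p = 4.70e-06). Neither gene overlapped between the groups, and BIX replicate 3 was again highest and replicate 2 lowest. Without a given library, the log2 fold change stayed between 0.76 and 1.02 for HLA-B, 0.47 and 0.70 for HLA-C, 0.44 and 0.56 for HLA-E and 0.67 and 0.82 for B2M, called each time.

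NLRC5 (chr16:56989485-57083531, plus strand) was at 105.0, 105.1 and 104.2 CPM under DMSO, which is a narrow spread, and at 72.9, 86.5 and 70.2 CPM under BIX. All BIX libraries were below all DMSO libraries. The log2 fold change was -0.45 ± 0.08 (SE; edgeR adjusted p = 0.000574), and between -0.55 and -0.39 with any library left out, called each time. Within BIX, the order was the reverse of that of the chains: replicate 2 had the highest NLRC5 and the lowest HLA-B, HLA-C, HLA-E and B2M, and replicate 3 the lowest NLRC5 and the highest level of all 4 chains. With 3 libraries this is a description only.

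Within-library ratios placed the chains apart from each other as well. HLA-B per HLA-C was 2.88, 2.68 and 2.86 under BIX and 2.32, 2.19 and 2.30 under DMSO. HLA-E per B2M was 0.0543, 0.0586 and 0.0531 under BIX and 0.0614, 0.0691 and 0.0643 under DMSO. Neither pair of ranges overlapped, while HLA-B per B2M (0.217 to 0.249 and 0.194 to 0.223) and HLA-C per B2M (0.0766 to 0.0872 and 0.0845 to 0.102) did. B2M counts per NLRC5 count were 88.6, 64.9 and 99.2 under BIX against 35.6, 36.9 and 36.6 under DMSO. The 4 chains made up 0.763% to 0.958% of all counts under BIX and 0.507% to 0.539% under DMSO.

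Per kilobase of the principal transcript, DMSO levels were 4044 ± 72.2 CPM per kb for B2M, 508 ± 46.7 for HLA-B, 224 ± 27.8 for HLA-C, 97.3 ± 7.55 for HLA-E and 15.5 ± 0.0755 for NLRC5 (SD, n = 3). Under BIX they were 6729 ± 726, 949 ± 170, 336 ± 51.7, 137 ± 8.14 and 11.3 ± 1.28, in the same order. No neighbours in this order overlapped in either group. In DMSO cells B2M ranked 7 by CPM of 12727 genes, HLA-B 92, HLA-C 493, HLA-E 840 and NLRC5 2606.

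Among the 14 human genes of peptide supply and loading, 3 rose and 1 fell (median log2 fold change 0.06, all genes -0.01). Over all genes, 18.4% were called higher and 18.4% lower. TAP1, the other subunit of the transporter, was at 130, 132 and 117 CPM under DMSO and 201, 190 and 202 under BIX (log2 fold change 0.64, edgeR adjusted p = 7.56e-06). PSMB9, which is transcribed away from TAP1 from a start site in the same short stretch of chromosome 6, was at 105, 122 and 110 CPM under DMSO and 111, 93.0 and 119 under BIX, with overlap (95% interval of the log2 fold change -0.26 to 0.13). TAP1 per PSMB9 was 1.82, 2.04 and 1.69 under BIX and 1.24, 1.08 and 1.06 under DMSO, so that this neighbouring pair did not move together. TAPBP, which bridges the transporter and class I, and ERAP2, a peptide-trimming protease, rose with log2 fold changes of 0.30 and 0.34. PSMB10 fell from 30.6, 36.1 and 34.3 CPM to 19.2, 14.6 and 19.7 CPM (log2 fold change -0.92, edgeR adjusted p = 4.93e-05).

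Of the 13 promoter factors, 5 rose and 1 fell, against 18.4% of all genes called in each direction. NFKB1 (0.43, edgeR adjusted p = 7.04e-05), IRF1 (0.43), IRF2 (0.32) and ATF1 (0.33) rose without overlap. REL was called with a log2 fold change of 0.57, yet its BIX libraries at 42.3, 52.8 and 28.6 CPM overlapped DMSO at 30.1, 26.0 and 27.2. NFYA fell (log2 fold change -0.32, edgeR adjusted p = 0.00379). RFX5 was at 108, 110 and 105 CPM under DMSO and 104, 115 and 112 under BIX, with a 95% interval of the log2 fold change from -0.11 to 0.16. Whether any of these factors acts on the promoter windows printed above was not tested, and no binding was measured here.

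**Figure D3:**
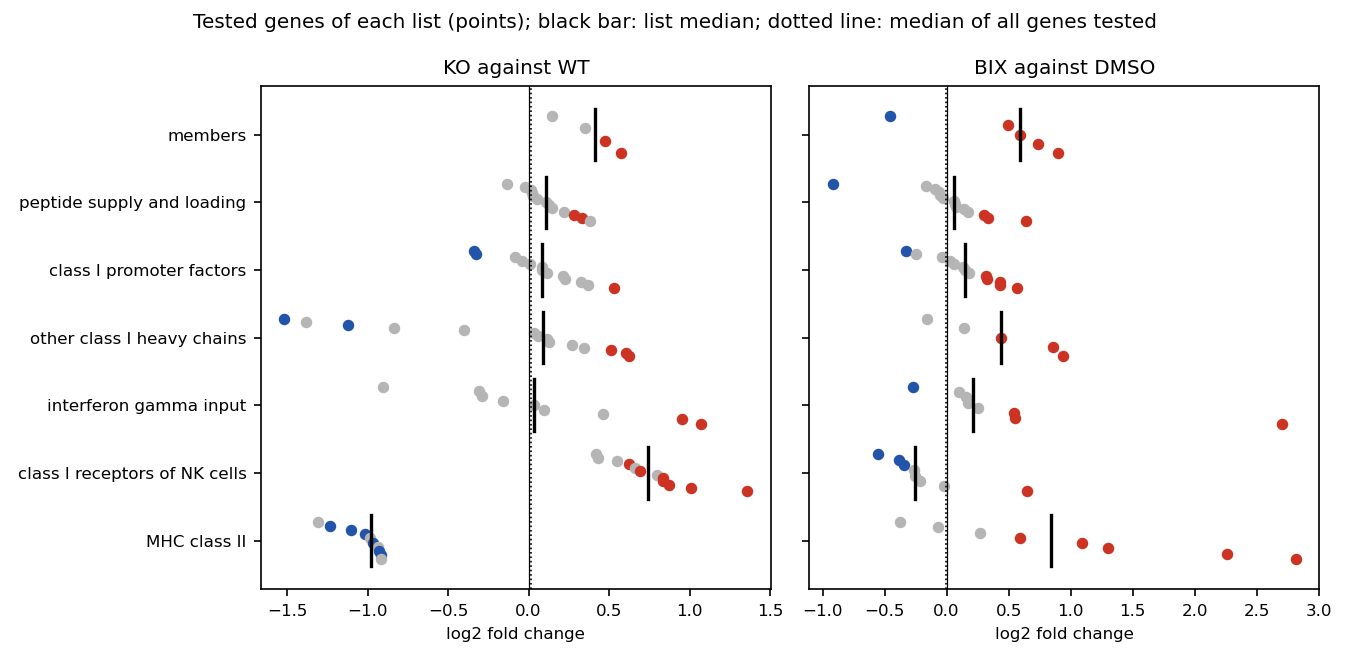
Log2 fold change (x axis) of every tested gene in each list (rows), in KO against WT (left) and BIX against DMSO (right). Red points were called higher, blue points lower and grey points not called, black bars are list medians and the dotted line is the median of all genes. The receptor list lies to the right in mouse (median 0.74) and to the left in human (-0.26), and class II the other way round (-0.98 and 0.84). The receptor lists hold mostly different genes, Klra genes in mouse and KIR genes and LILRB1 in human.

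Interferon gamma input rose in part: of 8 genes tested, 3 rose, among them IFNG and IFNGR1, and JAK1 fell. Over all genes, 18.4% were called higher and 18.4% lower. IFNG was at 31.1, 28.4 and 35.0 CPM under DMSO and 259, 165 and 193 under BIX, a 6.53-fold difference (edgeR adjusted p = 1.90e-08). IFNGR1, a chain of the interferon gamma receptor, had a log2 fold change of 0.55 (edgeR adjusted p = 4.80e-05). JAK1, the receptor-bound kinase, had -0.27. NLRC5 thus fell in libraries in which IFNG and IRF1, its known inducers, rose.

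Among 5 other heavy chains tested, 3 rose and none fell, against 18.4% of all genes called in each direction. MR1, which presents microbial metabolites, rose 1.92-fold (edgeR adjusted p = 6.05e-07), and HLA-F 1.36-fold with overlap between the groups. Of 8 receptors of class I, KLRD1 rose (log2 fold change 0.65), and KLRC1 (-0.38), LILRB1 (-0.34) and KIR2DL3 (-0.55, with overlap) fell. KLRD1 and KLRC1 encode CD94 and NKG2A, the chains of the receptor for HLA-E, so that the ligand and 1 receptor chain rose while the other chain fell.

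Class II genes rose without CIITA. CIITA was at 118, 113 and 110 CPM under DMSO and 102, 116 and 107 under BIX (log2 fold change -0.07, 95% interval -0.22 to 0.07). Of 8 class II genes tested, 5 rose and none fell, against 18.4% of all genes called in each direction. HLA-DQB1, a class II beta chain, was at 27.7, 27.2 and 24.9 CPM under DMSO and 66.3, 58.4 and 71.8 under BIX (edgeR adjusted p = 2.97e-07). HLA-DRA, the alpha chain of HLA-DR, was at or near 0 in all 6 libraries. NLRC5 counts per CIITA count were 0.713, 0.747 and 0.656 under BIX and 0.887, 0.932 and 0.944 under DMSO, without overlap.

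**Figure D4:**
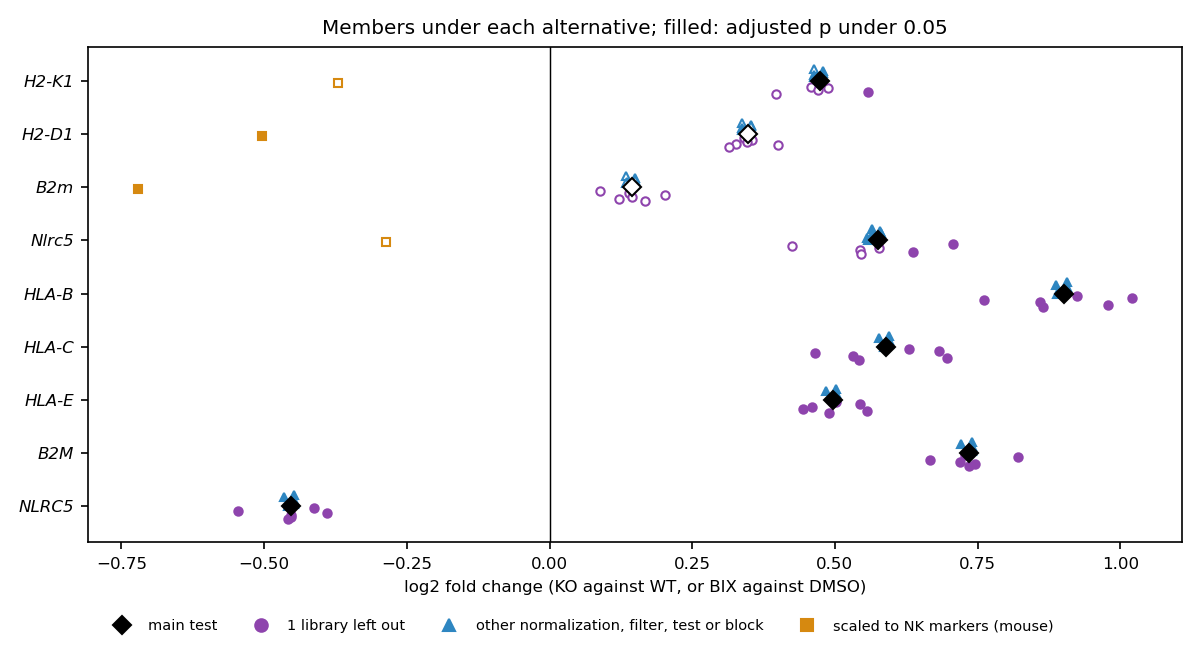
Log2 fold change (x axis) of each member (rows) in the test reported (black diamonds), with 1 library left out (purple circles), under another normalization, filter, test or the replicate block (blue triangles) and, in mouse, with libraries scaled to NK markers (orange squares). Filled symbols have an adjusted p under 0.05. The human symbols are all filled, on the right of 0 for HLA-B, HLA-C, HLA-E and B2M and on the left for NLRC5. The mouse symbols are on the right of 0 except for the NK marker scaling.

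Across species, 40 genes of these lists had the same symbol in both tables and were tested in both. Ifng, Irf1 and Klrd1 were called higher in both comparisons. Nlrc5, Psmb10 and Klrc1 were called higher in KO and lower under BIX, and Rel lower in KO and higher under BIX. The comparisons differ in species, cell source and kind of perturbation, and the difference between them was not tested.

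The genes most like the members in pattern were named by Pearson's r of log2 CPM over the 6 libraries of a species, which share the group difference. For the mean of H2-K1, H2-D1 and B2m these were Traf1 (r = 0.999), Klrg1 (0.997), Dffb, Rab40c and Zfp235 among 9128 genes. Klrg1, an inhibitory receptor of mature NK cells, was at 45.4, 50.5 and 43.1 CPM in WT and 94.2, 90.6 and 82.6 in KO. For Nlrc5 they were Sema4c (0.996), Pold3, Zdhhc5, Tubgcp4 and Ssbp3. In human, HNRNPF (0.999), PKM, SELENOS and ZC3H12A were among the 5 genes most like the mean of the 4 chains, of 8551 genes. For NLRC5 they were TMEM200A (0.999), IKBKB, DPF3, PCGF3 and ZFTA. IKBKB, a kinase upstream of NF-kB, was at 157.1, 157.1 and 156.9 CPM under DMSO and 125, 138 and 124 under BIX, the same order of BIX libraries as NLRC5.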

How the data were processed

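Poly(A) RNA of splenic NK cells (WT and KO) and NK92MI cells (BIX and DMSO) was sequenced, 3 libraries each. Per the submitters' processing notes and the paper, the authors used fastp 0.23.4, STAR 2.7.11b (GRCm38 for mouse, GRCh38 for human) and HTSeq 2.0.3. The deposited values are raw counts per gene symbol. Annotation release and strand setting are not given in the sources used here. Groups follow the sample titles.

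All genes were fitted with edgeR 4.0.16 in R 4.3.3 (TMM, filterByExpr, glmQLFTest, two-sided), separately for each species, with Benjamini-Hochberg adjustment. Scripts were tested on simulated data. DESeq2 1.42.0, limma 3.58.1 (voom), other scalings and filters, the study's thresholds and leaving out each library were alternatives. The members and lists were chosen with earlier results of these data known. Besides the members, up to 6 called genes per list with the smallest adjusted p, Tap1, Psmb9, Irf1, Rfx5, Ciita and their human forms, the targeted gene, Ezh2 and the 5 genes most like the members (mean CPM of at least 10) were named, apart from a few genes that are not reported here. Klrc1, Klra3, Jak2, the class II genes other than CIITA and the ratios were chosen after their values were seen.

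Positions and principal transcript lengths come from GENCODE M21 and 44, which need not match the authors' release. Of the 100-base windows in their transcripts, 23.9% for HLA-B (with DHFRP2), 3.59% for H2-D1, 0.957% for H2-K1 and under 0.5% for the other members also occurred in another gene. Reads of HLA alleles unlike the reference can be lost, so levels between HLA genes are approximate.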

Additional observations from a re-analysis of the deposited data

Results flagged for a closer look

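Of 40 genes listed for both species, 4 had groups that did not overlap in either comparison and lay in opposite directions. Over all genes tested, 19.1% did not overlap with KO higher and 19.3% with KO lower, and 24.1% with BIX higher and 23.9% with BIX lower, and 4 of 40 is not read as particular to these genes. The difference between the comparisons was not tested, and they differ in species and in the kind of perturbation. Nlrc5 had a log2 fold change of 0.58 in KO against WT, and NLRC5 of -0.45 in BIX against DMSO. Psmb10 was higher in KO (0.33) and PSMB10 lower under BIX (-0.92). Klrc1 was higher in KO (0.83) and KLRC1 lower under BIX (-0.38). Jak2, a kinase of the interferon gamma receptor, had -0.31 in KO (edgeR adjusted p = 0.0510) and JAK2 0.16 under BIX (edgeR adjusted p = 0.185), neither called. With 3 libraries a group, no single library was examined as an outlier.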

How the results depend on the processing

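In human, all 5 members kept their direction and their call under 12 alternatives. With the thresholds of the study, 3 members were called in place of 5 and 8 pathway genes in place of 21. Over all genes, 11.7% were called in place of 36.9%. DESeq2 at these thresholds, an alternative added after seeing the data, called 4 members and 8 pathway genes. Leaving out a library gave 5 called members each time and between 18 and 25 called pathway genes. No paired analysis was run for human because no label ties the numbers of the control columns to DMSO replicates.

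In mouse, 2 members and 19 pathway genes (15 higher, 4 lower) were called. DESeq2 size factors in edgeR gave 1 member. At adjusted p under 0.05, DESeq2 itself called 3 members and 28 pathway genes, beside 23.4% of all genes. The thresholds of the study gave 0 members and 0 pathway genes with edgeR, which called 0 genes in all at these thresholds (4719 at an unadjusted p under 0.05), and 1 member with DESeq2 at the same thresholds, which called 396 genes higher and 1099 lower. Leaving out a library gave between 0 and 2 members and between 0 and 36 pathway genes: 0 pathway genes without KO replicate 2, KO replicate 3 or WT replicate 3, 1 without WT replicate 1 and 36 without WT replicate 2. Over all genes, edgeR then called 0 without KO replicate 2 or 3 (3208 and 3287 at an unadjusted p under 0.05), and 1433 higher and 2097 lower without WT replicate 2. The cause was not tested. Scaling to NK cell markers reversed the direction: 2 members (H2-D1 at -0.50 and B2m at -0.72) and 37 pathway genes were called, all lower, with H2-K1 at -0.37 and Nlrc5 at -0.29. It moved the median of all genes to -0.85, with 33 genes called higher and 9837 lower, since a change of scaling moves all genes nearly alike. With the replicate number as a block, 2 members and 28 pathway genes were called, while the share called over all genes went from 11.9% to 24.4%. Same-numbered KO and WT libraries had correlations of their deviations of 0.281, 0.352 and -0.188. With 3 libraries a group, these values cannot decide whether equal numbers mark a pairing. Not every library correlated best with its own number.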
